A study of Mus musculus with 2 samples.

Results

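TRBV19 is a V gene of the mouse T cell receptor beta locus, known in the older nomenclature as Vβ6. Its rearranged chains were taken from single-cell TCR sequencing of thymic CD4 single-positive (SP) T cells, in which every beta chain (TRB) contig annotated with TRBV19 was a member. The WT library had 298 such chains among 4141 TRB chains, and the Btla KO library 287 among 5181, 585 of 9322 in all. Each lay in a different cell, out of 4040 WT and 5077 Btla KO cells. The gene was chosen by its share of TRB chains, which was lower in Btla KO, so the share is given here as a description. The WT cells came from C57BL/6J mice and the Btla KO cells from the strain labelled C57BL/6-Btla KO, a germline knockout of the co-inhibitory receptor BTLA. All mice were 8 to 12 weeks old with no treatment stated, and CD4 SP cells were enriched from thymocytes by negative selection with a naive CD4 T cell kit. Each genotype gave 1 library, and the number of mice behind each was not stated. No test between genotypes was therefore possible, and the exact (Clopper-Pearson) 95% intervals below cover counting error only. The contigs hold TRA and TRB chains alone, so neither Btla nor the markers of CD4 SP cells could be checked. No contig of another receptor locus was among the 6003 WT and 7101 Btla KO contigs.

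A beta chain is made in the thymus when the RAG recombinase joins a V, a D and a J segment, guided by recombination signals beside each segment. Segment ends are trimmed and bases are added before joining, so the junction, which encodes CDR3, differs between cells. CDR1 and CDR2 are encoded by the V gene itself, while CDR3 of both chains lies over the peptide. Vβ6 is one of the beta families over-represented in mouse mucosal-associated invariant T (MAIT) cells, whose alpha chain joins TRAV1 to TRAJ33.

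The germline end of TRBV19 is shown first, since all junctions below start from it. RefSeq places the gene at chr6:41178589-41179048 on the plus strand of GRCm38, with exon 1 of 49 bases, an intron of 108 bases and exon 2 of 303 bases. The last 16 bases of exon 2 begin the CDR3. In the line that gives them (chr6:41179033-41179087), capitals mark the CDR3 part, and lower case the recombination signal, a heptamer and a nonamer with a 23-base spacer between them. CDR1 and CDR2 follow, and the TRBJ ends named below and both TRBD segments are given in lower case.
TRBV19 CDR3 start and signal: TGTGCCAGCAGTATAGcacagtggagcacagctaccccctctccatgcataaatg
TRBV19 CDR1: TTCAATCATGATACA
TRBV19 CDR2: TCAATAACTGAAAACGAT
TRBD1: gggacagggggc
TRBD2: gggactgggggggc
TRBJ1-1 CDR3 end: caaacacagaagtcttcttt
TRBJ2-1 CDR3 end: taactatgctgagcagttcttc
TRBJ2-5 CDR3 end: aaccaagacacccagtacttt
TRBJ2-7 CDR3 end: ctcctatgaacagtacttc

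The 16 germline bases encode cysteine, alanine, serine, serine and isoleucine, plus a base of a further codon. In all 298 WT chains and all 287 Btla KO chains the 270 bases from framework 1 to framework 3 equalled the genome. CDR1 and CDR2 were thus the same in all 585 chains, and the chains varied in CDR3, TRBJ and the paired alpha chain.

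TRBV19 made up 7.20% of the TRB chains of the WT library (95% interval 6.43 to 8.03%) and 5.54% of those of the Btla KO library (4.93 to 6.20%). The difference was -1.66 percentage points, with a counting interval (Newcombe) from -2.67 to -0.66. The gene ranked 3 of 21 in WT and 8 of 21 in Btla KO among the TRBV genes that reached 1% of TRB chains in WT or Btla KO. The 21 include the joint call TRBV12-2+TRBV13-2 (328 WT and 405 Btla KO chains), which is counted here as a gene of its own. Of these 21 genes, 2 had intervals that did not overlap between the libraries, or 9.52%: TRBV19, lower in the Btla KO library, and TRBV10, higher there at 5.93% against 4.59%. In cells with exactly 1 alpha and 1 beta chain the TRBV19 intervals overlapped, at 7.54% of 1406 WT chains (6.21 to 9.05%) and 5.25% of 1466 Btla KO chains (4.17 to 6.52%). The difference in these cells was -2.29 percentage points, with a Newcombe interval from -4.10 to -0.497. The Btla KO to WT ratio of TRBV19 was 0.770, while the 21 ratios ran from that value to 1.37 with a median of 0.987. TRBV12-2 and TRBV13-3 had the next lowest ratios, 0.795 and 0.812, and their intervals overlapped. The TRBV12-2 ratio leaves out the chains of the joint call, so it may cover only a part of that gene.

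**Figure D1:**
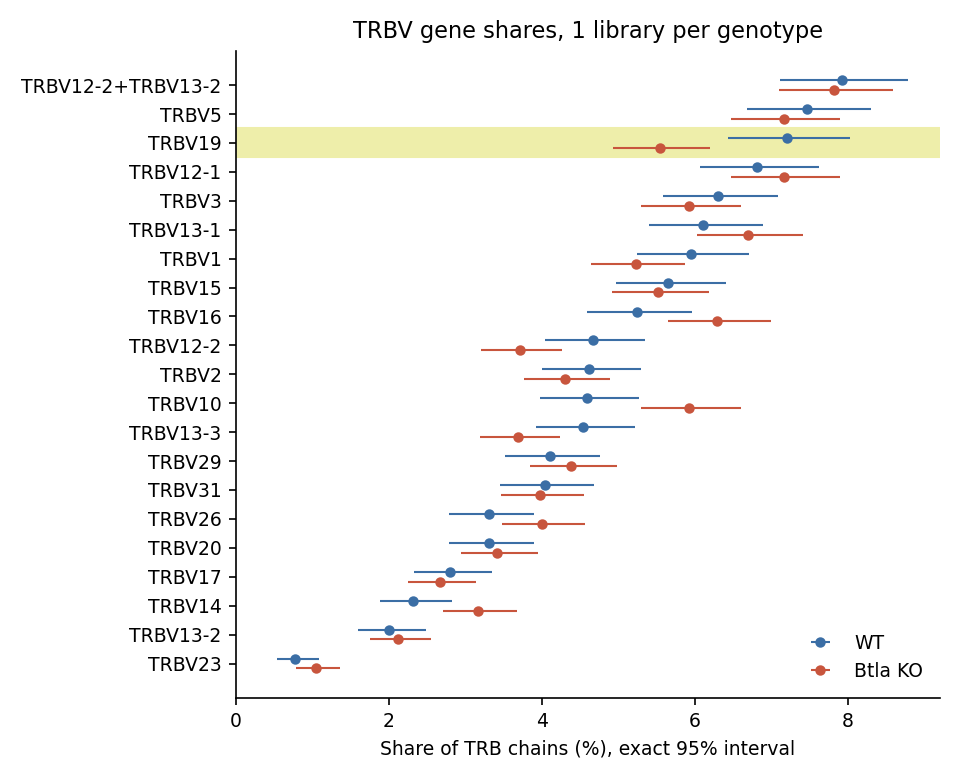
Share of TRB chains (%) for the 21 TRBV genes that reached 1% in WT or Btla KO, with points for WT (blue) and Btla KO (red) and bars for exact 95% intervals. The shaded row is TRBV19, at 7.20% in WT and 5.54% in Btla KO.

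The libraries differed in depth, so the share was also taken within strata of unique molecular identifiers (UMIs), which count captured transcripts per contig. TRBV19 was more frequent among contigs with few UMIs than among those with many, in both libraries. In WT it held 10.1% of the 1013 chains with 5 to 9 UMIs (8.28 to 12.1%) and 4.90% of the 1225 chains with 20 or more (3.76 to 6.26%). In Btla KO it held 7.36% of 1713 chains (6.16 to 8.70%) and 3.93% of 968 chains (2.79 to 5.35%) in the same strata. The Btla KO share was the lower one in each of the 5 strata. At 1 to 2 UMIs, with 5 WT and 8 Btla KO TRBV19 chains, the shares were 5.75% and 5.71%. The intervals did not overlap at 10 to 19 UMIs, where TRBV19 held 101 of 1489 WT chains (6.78%) and 77 of 1779 Btla KO chains (4.33%). At 3 to 4 UMIs the shares were 9.17% of 327 WT chains and 6.54% of 581 Btla KO chains, with overlapping intervals. Contigs of 20 or more UMIs were 29.6% of WT and 18.7% of Btla KO TRB chains, and so the Btla KO library held more of the strata in which TRBV19 is frequent. Weighting the Btla KO strata by the WT sizes gave a TRBV19 share of 5.15%.

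**Figure D2:**
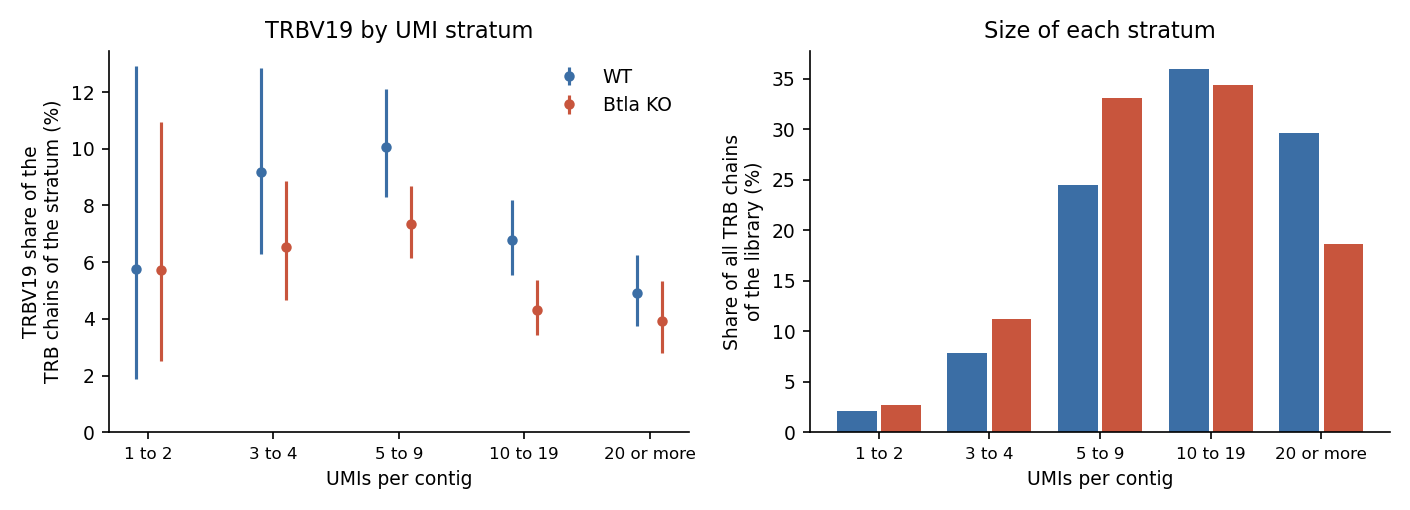
Left, TRBV19 share (%) of the TRB chains in each stratum of UMIs per contig, with exact 95% intervals for WT (blue) and Btla KO (red). Right, share (%) of all TRB chains of the library that fall in the stratum. TRBV19 goes from 10.1% at 5 to 9 UMIs to 4.90% at 20 or more in WT.

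TRBV19 contigs themselves had few UMIs and were long. Their median was 10 UMIs in WT against 13 for all other TRB contigs, and 8 against 10 in Btla KO. Among the 21 TRBV genes this median ranked 4 from the lowest in each library. TRBV2, with 7 and 6 UMIs, TRBV20 and TRBV13-2 were lower in both, so few UMIs were not particular to TRBV19. TRBV19 contigs also had the fewest reads per UMI of the 21 TRBV genes in each library, with medians of 242 in WT and 206 in Btla KO. Over the 21 genes the medians went up to 471 and 399. The median TRBV19 contig was 701 bases long in WT and 695 in Btla KO, the longest of the 21 genes in each. The next longest, TRBV2, had medians of 625 and 611 bases, and the shortest median was 512 in WT and 513 in Btla KO. In the GENCODE M21 annotation of the same build the 5′ untranslated region of TRBV19 has 214 bases, and only that of TRBV2, with 216, is longer among the 15 of these genes that have one annotated. Across the 21 genes, median contig length and median reads per UMI had a Pearson r of -0.77 in WT and -0.81 in Btla KO. These points share libraries and a common constant region, and the r is a description. The part of contig length in the recovery of TRBV19 chains was not tested.

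**Figure D3:**
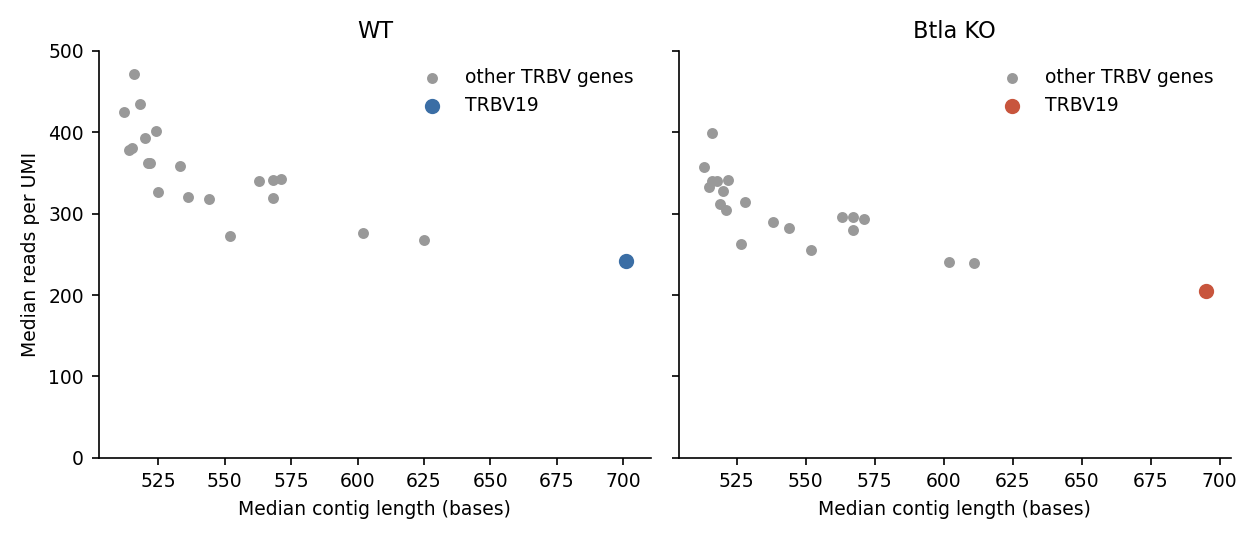
Median reads per UMI against median contig length in bases for the 21 TRBV genes, WT at left and Btla KO at right. TRBV19, the coloured point, lies at 701 bases and 242 reads per UMI in WT and at 695 bases and 206 reads per UMI in Btla KO.

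All 12 functional TRBJ genes were joined to TRBV19 in each library. The 6 genes TRBJ1-1 to TRBJ1-6 lie upstream of TRBC1 and the TRBJ2 genes upstream of TRBC2, and the cluster used sets the constant region of the transcript. TRBJ2 genes held 51.0% of TRBV19 chains in WT (152 of 298, 45.2 to 56.8%) and 60.3% in Btla KO (173 of 287, 54.4 to 66.0%). The difference was 9.27 percentage points (Newcombe interval 1.22 to 17.2), while the exact intervals of the libraries overlapped. In cells with exactly 1 alpha and 1 beta chain the interval of the difference included 0 (-3.78 to 24.0). For chains of the other V genes the TRBJ2 share was 60.9% in WT (59.3 to 62.4%) and 59.8% in Btla KO (58.5 to 61.2%). The WT TRBV19 chains therefore stood below the other WT chains, with intervals that did not overlap, whereas those of Btla KO did not. Every TRBV19 chain with a TRBC call had the constant region of the cluster of its TRBJ, 298 in WT and 281 in Btla KO, and 6 Btla KO chains had no call.

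TRBJ1-1, the TRBJ gene nearest to TRBD1, differed most between the libraries. It was the most used partner in WT, with 53 of 298 chains (17.8%, 13.6 to 22.6%), and had 31 of 287 chains in Btla KO (10.8%, 7.46 to 14.98%). Chains of the other V genes used TRBJ1-1 at 11.4% in WT (10.5 to 12.5%) and 11.2% in Btla KO. The WT TRBV19 value was thus above that of the other WT chains, with intervals that did not overlap, and the Btla KO value was close to that of the others. TRBJ2-7 was the most used partner in Btla KO, with 40 chains (13.9%), and had 41 in WT (13.8%). TRBJ2-1 held 27 WT chains (9.06%) and 37 Btla KO chains (12.9%), and TRBJ2-5 held 24 (8.05%) and 34 (11.8%). No TRBJ gene of the 12 had intervals apart between the libraries within TRBV19, nor over all TRB chains, where the percentage was 0. The largest difference, that of TRBJ1-1, was -6.98 percentage points (-12.6 to -1.29).

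**Figure D4:**
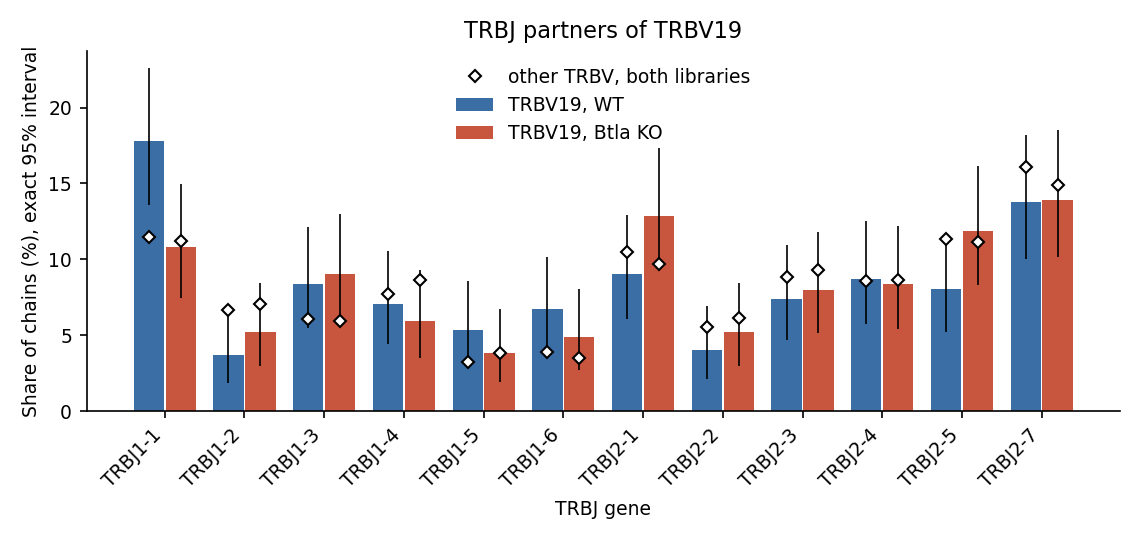
Share (%) of TRBV19 chains joined to each TRBJ gene, in WT (blue, 298 chains) and Btla KO (red, 287 chains), with exact 95% intervals. Open diamonds give the share among chains of all other V genes of the same library. TRBJ1-1 is at 17.8% in WT and 10.8% in Btla KO.

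The likeness of TRBJ usage between V genes was measured by total variation distance, which is 0 for equal usage and 1 for no overlap, added over the 2 libraries. The genes closest to TRBV19 were TRBV26, with distances of 0.0897 in WT and 0.127 in Btla KO, TRBV20, with 0.114 and 0.130, and TRBV15, with 0.144 and 0.124. TRBV19 in WT and TRBV19 in Btla KO lay 0.118 apart, and the other V genes as a whole 0.0294 apart over far more chains.

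The junction was read base by base against the germline. TRBV19 chains began with a mean of 12.7 germline bases in WT (SD 2.03, n = 298 chains) and 12.9 in Btla KO (SD 1.90, n = 287), of the 16 available. All 16 were kept in 29 WT chains (9.73%) and 31 Btla KO chains (10.8%). The most frequent number was 14 in WT, with 72 chains (24.2%, 19.4 to 29.4%), against 47 in Btla KO (16.4%, 12.3 to 21.2%). In Btla KO it was 12, with 64 chains (22.3%), and 67 WT chains (22.5%) had this number. A match of 13 bases was found in 16 WT chains (5.37%, 3.10 to 8.57%) and 34 Btla KO chains (11.8%, 8.35 to 16.2%). Added bases that happen to equal the germline are counted as kept. Between the V and J matches lay a mean of 10.2 bases in WT (SD 3.70) and 11.3 in Btla KO (SD 4.12), which hold the D segment and added bases.

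A D segment was called where at least 5 bases between V and J equalled TRBD1 or TRBD2. TRBD1 was the longer match in 140 WT chains (47.0%) and 138 Btla KO chains (48.1%), and TRBD2 in 62 (20.8%, 16.3 to 25.9%) and 86 (29.97%, 24.7 to 35.6%). Both matched equally in 19 WT chains (6.38%) and 8 Btla KO chains (2.79%), and 77 (25.8%) and 55 (19.2%) had no match. The higher TRBD2 share in Btla KO thus came with fewer tied and unmatched chains, and not with a lower TRBD1 share. It also came with a higher TRBJ2 share, 51.0% in WT and 60.3% in Btla KO, whose part in it was not tested. TRBD2 lies downstream of the TRBJ1 cluster and is not joined to it by deletion. Of the TRBV19 chains with a TRBJ1 gene, 6 of 146 in WT (4.11%) and 10 of 114 in Btla KO (8.77%) nonetheless matched TRBD2 longest, which gives the scale of error of such calls. Among chains with a TRBJ2 gene, 56 of 152 in WT (36.8%) and 76 of 173 in Btla KO (43.9%) matched TRBD2.

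CDR3 was shorter in TRBV19 chains of WT than in those of Btla KO by 0.292 residues on average. The mean was 13.9 residues in WT (SD 1.34 over 298 chains, range 11 to 17) and 14.2 in Btla KO (SD 1.38 over 287 chains, range 10 to 19), counted from the cysteine to the phenylalanine. Chains of the other V genes averaged 14.2 residues in WT (SD 1.52) and 14.3 in Btla KO (SD 1.52), a difference of 0.0367. In both libraries 14 residues was the most frequent TRBV19 length, with 102 WT chains (34.2%) and 84 Btla KO chains (29.3%). Lengths of 12 or fewer made up 17.8% of WT (13.6 to 22.6%) and 11.8% of Btla KO TRBV19 chains (8.35 to 16.2%). Lengths of 16 or more made up 8.72% (5.78 to 12.5%) and 13.2% (9.54 to 17.7%), against 18.8% and 19.8% of the chains of other V genes. The mean was larger in Btla KO for 10 of the 12 TRBJ genes. It was smaller for TRBJ1-1, at 13.2 against 13.7 residues, and for TRBJ2-2, at 14.5 against 14.9. Most TRBJ genes also had a larger Btla KO mean with the other V genes, all but TRBJ1-2, TRBJ1-6, TRBJ2-3 and TRBJ2-4. A majority of larger Btla KO means was thus not particular to TRBV19, but the exceptions were different TRBJ genes. With the Btla KO means weighted by the TRBJ counts of WT, the Btla KO mean was 14.1 residues. Among the 21 TRBV genes, the difference of TRBV19 ranked 2 by size, after TRBV17.

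Position 5 of CDR3 is the last whole codon of germline TRBV19, an isoleucine. It was isoleucine in 111 WT chains (37.2%, 31.7 to 43.0%) and 101 Btla KO chains (35.2%, 29.7 to 41.0%). Other V genes had isoleucine there in 0.260% of WT and 0.347% of Btla KO chains. The libraries did not differ beyond their intervals. All 58 WT and 66 Btla KO chains that kept at least 15 germline bases had isoleucine, encoded by the germline codon. Of the chains that kept 14 bases and so completed the codon with another base, 51 of 72 in WT and 34 of 47 in Btla KO encoded isoleucine, and the remaining 21 and 13 encoded methionine. By the genetic code no other residue is possible at 14 bases, and at 15 or more only isoleucine is, so these outcomes follow from the counting of kept bases. Methionine held position 5 in 7.05% of WT and 4.88% of Btla KO TRBV19 chains, against 0.208% and 0.102% of other chains.

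Proline was the next most frequent residue at position 5, in 42 WT chains (14.1%) and 41 Btla KO chains (14.3%), close to the 12.5% and 13.04% of other V genes. Position 4, the second serine of the germline, was serine in 229 WT chains (76.8%, 71.6 to 81.5%) and 239 Btla KO chains (83.3%, 78.4 to 87.4%). Threonine was found there in 23 WT chains (7.72%) and 12 Btla KO chains (4.18%), and arginine in 27 (9.06%) and 23 (8.01%). Other V genes had serine at position 4 in 77.8% of WT and 77.8% of Btla KO chains. They had threonine there in 1.04% and 0.858%, and arginine in 6.95% and 7.36%. At position 6, which lies past the last whole germline codon, glycine led with 83 WT chains (27.9%) and 72 Btla KO chains (25.1%), followed by arginine with 45 (15.1%) and 48 (16.7%). Other V genes had glycine there in 25.2% of WT and 24.0% of Btla KO chains, and arginine in 11.9% and 11.3%. Over CDR3 positions 1 to 8, 1 of the 95 residues seen in TRBV19 chains had intervals apart between the libraries (1.05%), against 0 of 123 over all TRB chains. It was alanine at position 8, in 33 WT chains (11.1%, 7.75 to 15.2%) and 8 Btla KO chains (2.79%, 1.21 to 5.42%), while 6.19% of WT and 6.21% of Btla KO chains of other V genes had it. The WT value thus lay above that of the other V genes and the Btla KO value below it. This residue was singled out after its values were seen, and in cells with exactly 1 alpha and 1 beta chain its intervals overlapped, at 10 of 106 WT chains (9.43%, 4.62 to 16.7%) and 4 of 77 Btla KO chains (5.19%, 1.43 to 12.8%). Chains with isoleucine at position 5 had a mean length of 14.1 residues in WT (SD 1.38) and 14.5 in Btla KO (SD 1.35). Those with another residue averaged 13.8 (SD 1.31) and 14.03 (SD 1.37).

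**Figure D5:**
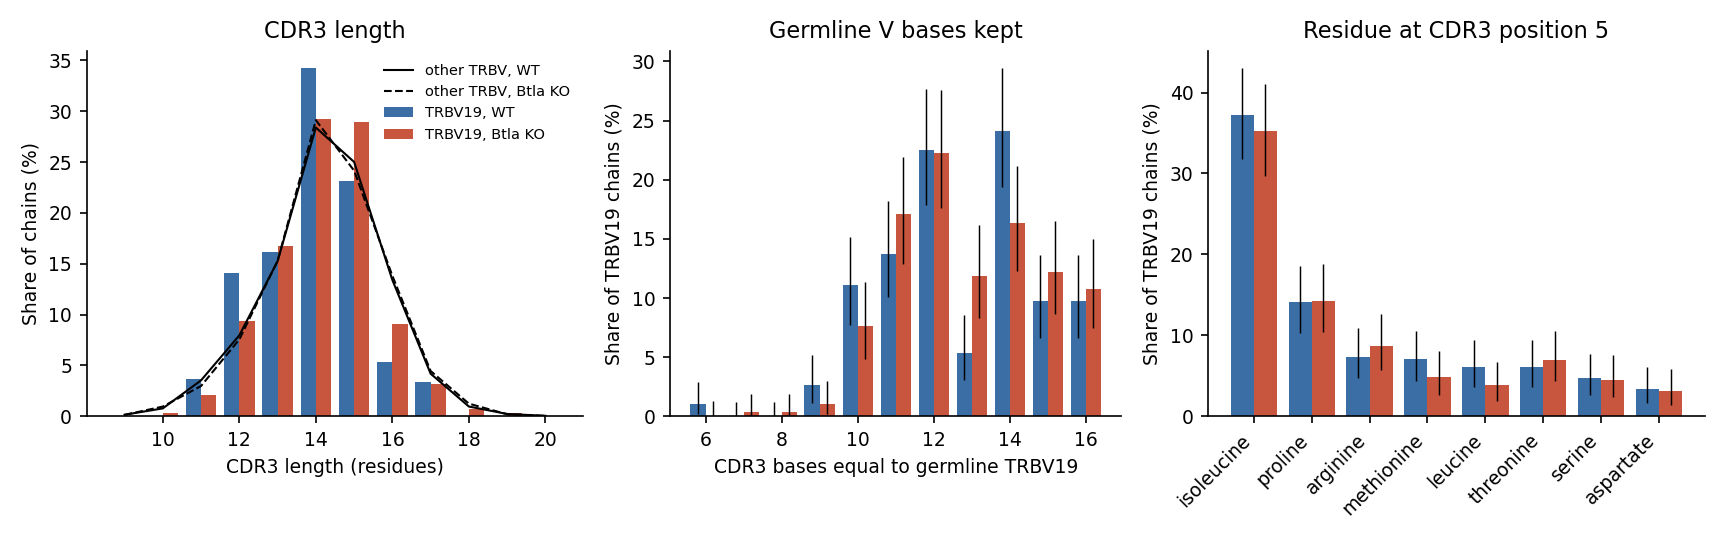
TRBV19 chains of WT (blue, 298) and Btla KO (red, 287). Left, share of chains (%) by CDR3 length in residues, with lines for the other V genes (solid WT, dashed Btla KO). Middle, share by the number of CDR3 bases equal to germline TRBV19. Right, share by residue at CDR3 position 5 for the 8 residues most frequent in WT. Bars in the middle and right panels are exact 95% intervals, and isoleucine is at 37.2% and 35.2%.

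An alpha chain was recovered in 140 of 298 TRBV19 cells in WT (47.0%, 41.2 to 52.8%) and in 100 of 287 in Btla KO (34.8%, 29.3 to 40.7%). Other cells with a TRB chain had one in 41.3% of WT (39.7 to 42.9%) and 34.6% of Btla KO cells (33.2 to 36.0%). WT was the higher with TRBV19 and without it, and in neither case did the intervals of the libraries overlap. With barcodes of more than 1 TRB chain left out, the TRBV19 intervals did overlap, at 42.3% in WT (36.4 to 48.4%) and 31.0% in Btla KO (25.5 to 36.9%). The median alpha contig of TRBV19 cells with 1 TRB chain had 4 UMIs in WT and 3 in Btla KO. Of the TRBV19 chains, 24 in WT (8.05%, 5.23 to 11.7%) and 16 in Btla KO (5.57%, 3.22 to 8.90%) shared the cell with a further TRB chain, against 6.25% and 6.50% of other TRB chains. TRBV19 had the most UMIs of the cell in 12 of these 24 WT cells and in 6 of these 16 Btla KO cells. Whether such barcodes held 1 cell or several was not tested.

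Alpha chains found in TRBV19 cells were diverse. There were 151 in WT and 107 in Btla KO, with 140 and 103 different combinations of TRAV and TRAJ, and no combination occurred in more than 3 chains. TRBV19 was the only TRB chain of the cell for 126 of the WT and 91 of the Btla KO alpha chains. The rest lay beside a further TRB chain. Their pairing with TRBV19 is not known, but they are counted in the shares below. TRAV6 was the most used subgroup in WT, with 33 chains (21.9%, 15.5 to 29.3%), and had 16 in Btla KO (14.95%, 8.80 to 23.1%). In cells with other beta chains TRAV6 held 15.6% in WT and 15.7% in Btla KO. TRAV13 was the most used in Btla KO, with 17 chains (15.9%, 9.54 to 24.2%), and had 15 in WT (9.93%, 5.67 to 15.9%). TRAV14 had the largest difference, with 10 WT chains (6.62%, 3.22 to 11.8%) and 15 Btla KO chains (14.02%, 8.06 to 22.1%). All of these intervals overlapped between the libraries. In cells with exactly 1 alpha and 1 beta chain, TRAV6 held 23 of 106 WT chains (21.7%) and TRAV13 held 15 of 77 Btla KO chains (19.5%). TRAV16, which is below the 5% needed to be named, was found in TRBV19 cells in 7 WT chains (4.64%) and 2 Btla KO chains (1.87%). In other cells it held 4.85% in WT and 3.03% in Btla KO, so a lower Btla KO value was not particular to TRBV19 cells. TRAJ1 to TRAJ30, the segments nearer to TRAC, held 45.03% of WT (36.9 to 53.3%) and 58.9% of Btla KO alpha chains of TRBV19 cells (49.0 to 68.3%), against 49.0% and 57.9% in other cells.

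MAIT-type alpha chains (TRAV1 with TRAJ33) were found in 2 WT cells and 1 Btla KO cell of the whole series, and TRBV19 was the beta chain in 1 WT cell and in the Btla KO cell. The CDR3 of both cells are shown because the alpha sequences are the same in all bases while the beta sequences differ, with capitals for the germline TRBV19 bases.
Alpha, WT cell and Btla KO cell: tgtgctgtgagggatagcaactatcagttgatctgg
Beta, WT cell, TRBJ2-3: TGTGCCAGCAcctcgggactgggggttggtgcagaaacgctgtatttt
Beta, Btla KO cell, TRBJ2-1: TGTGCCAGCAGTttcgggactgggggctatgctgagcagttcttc
The alpha contigs rested on 1 UMI in WT and 2 in Btla KO, and the beta contigs on 14 and 17. Neither beta chain kept the germline isoleucine codon. The TRAV11 with TRAJ18 alpha chain of invariant NKT cells was found in 8 WT and 9 Btla KO cells, of which 0 had TRBV19.

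Few TRBV19 sequences occurred more than once. In WT 8 sequences (same TRBJ and CDR3 bases) were each found in 2 cells, so that 16 of 298 cells (5.37%, 3.10 to 8.57%) shared a sequence. In Btla KO 13 sequences were each found in 2 cells, or 26 of 287 (9.06%, 6.00 to 12.99%). Chains of other V genes shared a sequence in 6.90% of WT (6.11 to 7.74%) and 8.66% of Btla KO cases (7.89 to 9.49%), with up to 6 and 3 cells per sequence. TRBJ1-1 was the partner in 4 of the 8 repeated WT sequences and in 4 of the 13 of Btla KO. Barcodes of the paired cells differed at 8 to 14 bases.

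Both cells of a pair had the same alpha chain in 2 Btla KO pairs, which are printed with the WT pair that kept all 16 germline bases and joined TRBJ1-1. Capitals mark the germline TRBV19 bases. In WT no pair had an alpha chain in both of its cells, and in 6 of 8 pairs neither cell had one.
Btla KO, TRBJ2-1, 2 cells: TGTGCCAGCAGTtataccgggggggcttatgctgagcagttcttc
Its alpha, TRAV4-4-DV10 with TRAJ47: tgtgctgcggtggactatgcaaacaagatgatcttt
Btla KO, TRBJ2-7, 2 cells: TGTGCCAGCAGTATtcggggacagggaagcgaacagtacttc
Its alpha, TRAV14N-3 with TRAJ9: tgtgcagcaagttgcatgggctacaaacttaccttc
WT, TRBJ1-1, 2 cells: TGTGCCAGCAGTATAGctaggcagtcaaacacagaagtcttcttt
The first of these has tyrosine at position 5, and the other 2 beta chains have isoleucine. The beta contigs of the TRBJ2-1 pair rested on 7 and 8 UMIs, those of the TRBJ2-7 pair on 5 and 7, and those of the WT pair on 3 and 10. In the remaining Btla KO pairs an alpha chain was missing in 1 cell (4 pairs) or in both (7 pairs), so whether those cells are sisters was not tested.

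No TRBV19 CDR3 was found in both libraries, by bases (0) or by residues (0). A count of 0, with 3 counts taken as its limit, allows a share of up to 1.01% of the WT and 1.05% of the Btla KO chains, and the exact upper bounds are 1.23% and 1.28%. For the other V genes 3 nucleotide sequences were in both libraries, or 0.0813% of the WT and 0.0641% of the Btla KO ones. By residues they had 18 in common, or 0.489% and 0.385%, so a count of 0 for TRBV19 was not distinguishable from their rate at this depth. Sequences that differed at 1 residue formed 22 pairs between the libraries, with 18 of 290 WT and 21 of 274 Btla KO sequences in such a pair. The libraries had 30 barcodes in common, which held 3 WT and 4 Btla KO TRBV19 cells, and 0 of these barcodes had TRBV19 in both.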

How the data were processed

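CD4 SP thymocytes gave 1 WT and 1 Btla KO library of the 10x Genomics V(D)J workflow. The authors assembled the reads with Cell Ranger 7.2.0 against the GRCm38 V(D)J reference and deposited a contig annotation per library whose values are unnormalized counts, 1 of reads and 1 of UMIs, for every contig. The deposited rows all pass the pipeline's cell, confidence, full-length and productive flags. Summed over all contigs, the libraries held 26700294 and 22026825 reads and 80347 and 75456 UMIs in WT and Btla KO. The authors' 3 summary tables (CDR3 lengths, clone proportions and V gene percentages) were not used.

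Contigs with chain TRB and V gene TRBV19 were selected, with all other TRB contigs for comparison. Intervals are exact (Clopper-Pearson) at 95% for shares and Newcombe for differences, from Python 3.11.15 with scipy 1.17.1. They cover counting error only, and counts of 1 library are not replicates. V, D and J germlines were read from the RefSeq annotation of GRCm38, the authors' build. V bases kept are the leading CDR3 bases equal to TRBV19, and J bases kept the trailing ones. A D call needed 5 equal bases between them. These steps were tested on simulated data. The simulated D segments were random sequences inserted whole, whereas TRBD1 and TRBD2 are alike and are trimmed. How well real TRBD1 and TRBD2 are told apart was therefore not tested. TRAV genes were grouped into subgroups by number.

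TRBJ genes and TRAV subgroups were named as the most used per library and the 3 with the largest difference among those with at least 5% in a library. TRBV genes were listed at 1% in a library, and the 3 closest in TRBJ usage were named among those at 1% in both. MAIT and invariant NKT types were taken from TRAV1 with TRAJ33 and TRAV11 with TRAJ18. Every sequence in at least 2 cells counted as repeated. The members and these lists were chosen with earlier results of these data known. Alternatives were a minimum of 3 UMIs, each distinct chain once, cells holding a single TRA and a single TRB, 1 TRB chain per cell by reads, barcodes of both libraries or of more than 1 TRB chain left out, single TRAV genes and repeats by amino acids. Doublets were not removed by a caller.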

Additional observations from a re-analysis of the deposited data

How the results depend on the processing

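Of 88 shares and differences of shares recomputed under the alternatives, 82 stayed within the counting interval of the value reported and 6 lay outside. Of the 88, 62 are shares, which have no sign, and 0 of the differences changed sign. Several alternatives kept nearly all chains, as with 293 of 298 WT TRBV19 chains at 3 UMIs or more. Their values had little room to move, so these counts are not a test of robustness. Mean lengths are not in these counts. The TRBV19 share stayed between 7.06 and 7.76% in WT and between 5.15 and 5.59% in Btla KO, a difference of -2.29 to -1.48 percentage points. In cells with exactly 1 TRA and 1 TRB chain the intervals of the libraries overlapped, while that of the difference ran from -4.10 to -0.497. The weighting of UMI strata and of TRBJ counts was added after the data were seen. The TRBJ2 share was 8.51 to 10.6 percentage points higher in Btla KO, and in those cells it was 66.2% in Btla KO, with an interval of the difference from -3.78 to 24.0. Alanine at position 8, tried after the data were seen, differed by -4.24 percentage points there (-12.0 to 4.296) against -8.29 over all chains. The difference in mean CDR3 length stayed between 0.277 and 0.381 residues. With contigs of at least 3 UMIs, an alpha chain was recovered in 33.8% of WT and 19.4% of Btla KO TRBV19 cells, intervals apart, and TRAV12 rather than TRAV13 then led in Btla KO. Without barcodes of more than 1 TRB chain the recovery intervals overlapped (42.3% and 31.0%). By single TRAV genes the most used held 6.62% in WT (TRAV6N-7) and 4.67% in Btla KO (TRAV13N-3, level with another gene), since a subgroup is split among near-identical copies. Isoleucine led at position 5 under every alternative run, at 34.3 to 41.5%. Repeated sequences stayed at 4.75 to 5.84% of WT and 8.86 to 9.32% of Btla KO TRBV19 cells. No paired analysis was possible because each genotype has 1 library. With 287 to 298 chains per library, and 107 to 151 alpha chains, a share of a single partner is known only to several percentage points.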
